A study of Mus musculus with 11 samples.

Results

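The genes described here are 8 genes of antigen display and of the response to interferon: B2m, H2-D1, H2-K1, Tapbp, Irf9, Ifitm2, Ifitm3 and Bst2. They were chosen by symbol, each matched 1 row of a table of 24138 loci, and all 8 reached a mean of at least 1 FPKM (fragments per kilobase of transcript, scaled to the library's mapped fragments), the level above which 12672 loci were tested. Total RNA was taken from cortices dissected from E14.5 mouse embryos. The 3 control libraries carried floxed Chd8 alleles and no labelled Cre: control 1 was Chd8 c/+, and controls 2 and 3 were Chd8 c/c. The 2 conditional knockout (cKO) libraries were Chd8 c/c with Emx1-Cre, a recombinase driver of the dorsal telencephalic lineage, so cells of other origin in the cortex, microglia and vessels among them, keep an intact Chd8 gene. Strain, sex and any pooling of embryos are not stated in the labels, so p-values measure only the spread between these libraries.

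MHC class I molecules display peptides from inside the cell at its surface. Each consists of a polymorphic heavy chain, encoded in the mouse by H2-K1, H2-D1 and their relatives, and of the invariant light chain beta-2 microglobulin, the product of B2m. Peptides are loaded in the endoplasmic reticulum with the help of tapasin, the product of Tapbp, which bridges the heavy chain and the peptide transporter. Interferons raise transcription of these genes through JAK kinases and STAT factors; for type I interferon the final complex holds IRF9 and binds an interferon-stimulated response element (ISRE). In the healthy brain class I levels are low compared with lymphoid tissue, and microglia and endothelial cells are known as strong sources among brain cells.

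The stretches of promoter below are printed because they hold the sites through which class I and interferon response genes are known to be read by their factors. They come from RefSeq (GRCm38.p6, the assembly named mm10), run 5′ to 3′ on the gene's strand, and give the 250 bases before the annotated start. Capitals in B2m and Bst2 mark an ISRE core (GAAA, any 2 bases, GAAA), and in H2-D1 a kappa B site of the palindromic class I enhancer form.
B2m, chr2:122147437-122147686, plus strand: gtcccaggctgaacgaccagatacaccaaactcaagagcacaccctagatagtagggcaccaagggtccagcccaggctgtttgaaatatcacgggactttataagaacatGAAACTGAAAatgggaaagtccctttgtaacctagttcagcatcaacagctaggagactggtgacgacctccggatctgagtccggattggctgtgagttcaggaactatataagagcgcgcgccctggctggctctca
H2-D1, chr17:35262844-35263093, plus strand: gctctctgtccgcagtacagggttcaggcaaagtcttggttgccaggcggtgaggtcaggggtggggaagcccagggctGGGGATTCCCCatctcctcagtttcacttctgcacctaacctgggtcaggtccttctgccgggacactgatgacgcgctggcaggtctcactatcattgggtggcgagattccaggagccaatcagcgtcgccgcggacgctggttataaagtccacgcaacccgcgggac
Bst2, chr8:71537473-71537722, minus strand: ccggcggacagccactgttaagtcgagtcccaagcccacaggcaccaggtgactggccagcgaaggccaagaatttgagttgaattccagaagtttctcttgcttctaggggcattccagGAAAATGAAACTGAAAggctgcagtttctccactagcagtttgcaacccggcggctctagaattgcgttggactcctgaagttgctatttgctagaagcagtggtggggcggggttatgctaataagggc

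All 8 genes had a promoter entry, with 10 windows of 300 bases (250 before to 50 after a start) in all, and each was searched on both strands. The ISRE core was found in B2m, Ifitm2, Ifitm3 and Bst2, or 4 of 8 genes, and in 3.44% of the 32851 windows of RefSeq. The first is a share of genes and the second of windows. Because the 8 were chosen as genes of antigen display and interferon response, this count is no independent result. The core began 139 bases before the start in B2m and nearer to it, at position -46, in Ifitm2. The Ifitm2 window (chr7:140955912-140956211, minus strand) lies inside the annotated span of the gene, 140954837 to 140959686. Its start is therefore not the outermost one. In Bst2, 2 overlapping matches began 130 and 124 bases before the start. Ifitm3 held 2 matches just past its start, within the first 30 transcribed bases, which are printed to show how close they lie (chr7:141010715-141010744, minus strand, matches in capitals).
Ifitm3: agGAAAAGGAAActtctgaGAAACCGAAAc

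The kappa B letters were found in H2-D1 and H2-K1 and in 0.0304% of windows (10 of 32851, those of H2-D1 and H2-K1 among them). The letters searched are those of the class I enhancer itself, so a match in class I genes is no independent result. The gamma-activated site letters TTCNNNGAA were found in Ifitm3 and Bst2 and in 8.30% of windows, and in both genes they overlapped an ISRE core match. No searched letters were found in the windows of Tapbp and Irf9. Matches describe letters only. Variants of these letters were not searched, so a gene without a match may still hold a variant of any of these sites.

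Chd8 itself was at 31.5, 30.02 and 31.8 FPKM in controls 1 to 3 and at 19.3 and 15.1 in cKO 1 and 2. The cKO mean was 55.2% of the control mean. In limma, the test over all loci described below, its log2 change was -0.83 (SE 0.15, adjusted p = 0.575). The deleted gene thus did not pass that test. One protocol field of these libraries names an Eed cKO where their titles and genotypes name Chd8. Eed was at 17.8, 20.9 and 20.8 FPKM in the controls and at 19.02 and 18.1 in the cKO, with overlapping groups. All 18 markers of dorsal cortical progenitors and neurons reached a mean of 1 FPKM. Libraries were of similar summed FPKM, between 418191 and 484296, and the sequencing depth is unknown, since FPKM carries no counts. Control 2 stood apart for markers of meningeal fibroblasts, whose 12 genes summed to 30.4 FPKM there, against 6.37 to 10.4 in the other 4 libraries. The 14 markers of blood leukocytes summed to between 0.288 and 0.439 FPKM in the 5 libraries, with 9 of them listed at 0 in every library.

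The light chain B2m had a higher level in both cKO libraries, and the heavy chain loci overlapped between groups. B2m (locus XLOC_011673; chromosome 2, 122147687 to 122153082) was at 11.1, 9.37 and 7.16 FPKM in controls 1 to 3 and at 17.4 and 22.6 in cKO 1 and 2. Both cKO libraries lay above every control, and their mean of 20.02 ± 3.65 FPKM (SD, n = 2) was 2.17 times the control mean of 9.20 ± 1.96 (SD, n = 3). Its log2 change (cKO less control, of log2(FPKM + 1)) was 1.05 (SE 0.22, 95% interval 0.51 to 1.59). Of the 12672 tested loci, 119 had a larger log2 change, or 0.939%. It did not pass the test over all loci in limma, a linear model with moderated variances (unadjusted p = 0.00363, Benjamini-Hochberg adjusted p = 0.575). In the authors' deposited table B2m had a log2 fold change of 1.12 and a q-value of 0.0252, and it was the only one of the 8 genes marked significant there. That table marked 4.21% of its 13511 tested loci, and 1.21% as higher in the cKO.

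H2-D1, the D-locus heavy chain, was counted by the authors as 1 locus with its neighbour H2-L (XLOC_008840; H2-D1 at chromosome 17, 35263094 to 35267497). The joined locus was at 11.8, 7.13 and 9.20 FPKM in controls 1 to 3 and at 8.40 and 5.99 in cKO 1 and 2. The groups overlapped, and the log2 change was -0.33 (SE 0.25, 95% interval -0.95 to 0.28, adjusted p = 0.637 in limma). H2-K1, the K-locus heavy chain (XLOC_009355; chromosome 17, 33996012 to 34000619), was at 1.96, 2.93 and 4.10 FPKM in the controls and at 3.07 and 2.55 in the cKO. Both cKO libraries lay inside the range of the controls, with a log2 change of -0.04 (SE 0.27, 95% interval -0.71 to 0.64, adjusted p = 0.960). Its sign was not stable: the change was 0.16 without control 3 and 0.06 without cKO 2. Class I heavy chain genes are near-identical in sequence, and reads may be split among them, so the level of a single heavy chain gene is uncertain.

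Within a library, B2m stood higher against the heavy chains in the cKO. Divided by the sum of the H2-D1/H2-L and H2-K1 loci, B2m gave 0.803, 0.932 and 0.538 for controls 1 to 3 and 1.52 and 2.65 for the cKO libraries. The groups did not overlap, and the mean ratio was 2.75 times higher in the cKO (2.08 ± 0.797, SD, n = 2, against 0.758 ± 0.201, SD, n = 3). The summed heavy chain level itself was 13.8, 10.06 and 13.3 FPKM in the controls and 11.5 and 8.53 in the cKO, with overlapping groups. This ratio was chosen after its values were seen and carries no test.

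**Figure D1:**
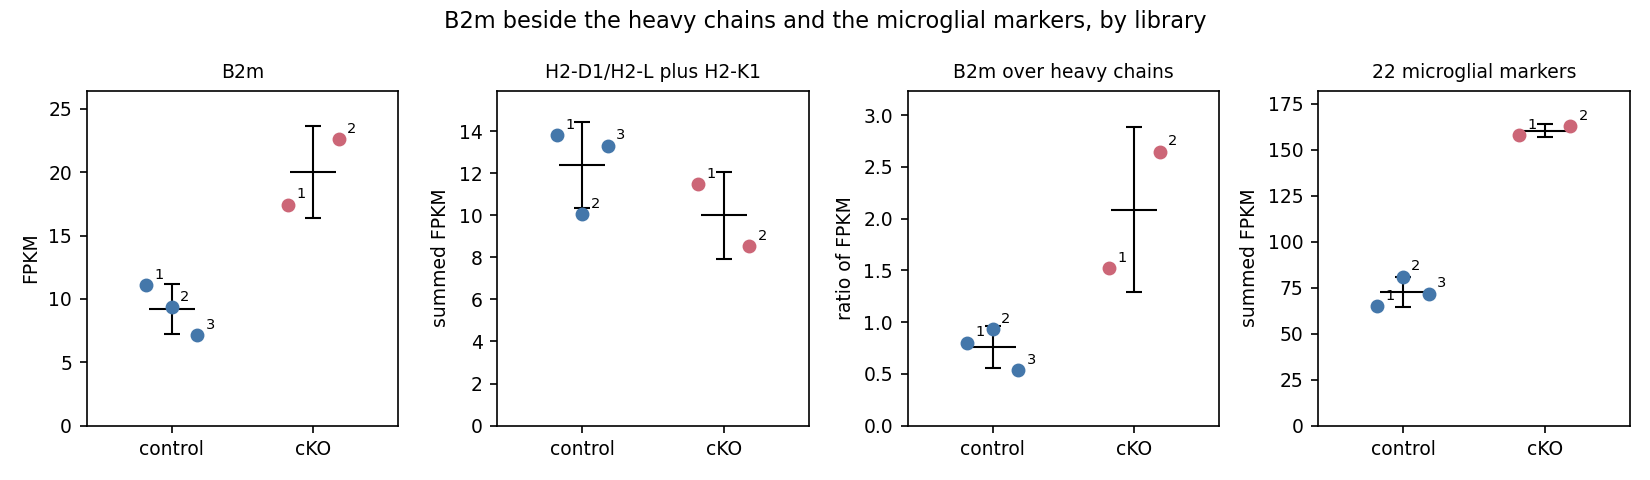
Levels by library of B2m, of the 2 heavy chain loci summed, of their ratio, and of 22 microglial and macrophage markers summed. Vertical axes give FPKM, or the ratio of FPKM. Points are libraries with their replicate number, and bars give the mean and SD of 3 controls and 2 cKO libraries. B2m, its ratio to the heavy chains and the microglial sum are higher in both cKO libraries than in any control, and the heavy chain sum overlaps.

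Like B2m, most markers of microglia and macrophages, called microglial markers here, were higher in both cKO libraries than in any control. All 22 were found in the table and none was at 0 in all libraries. They summed to 65.1, 81.1 and 71.9 FPKM for controls 1 to 3, and to 158 and 163 for the cKO libraries, or 2.21 times the control mean. Of the 22, 17 had both cKO libraries above every control, 4 overlapped and 1 had both below. The marker below was Tmem119, at 0.817, 1.62 and 0.811 FPKM in the controls and at 0.665 and 0.523 in the cKO, and Itgam was at 88.2% of the control mean with overlap; neither reached the level for testing. Among the 18 that were tested the median log2 change was 0.84, and 15 had both cKO libraries above every control, against 13.4% of all loci. Limma called none of the 18 at an adjusted p of 0.05, and 13 had an unadjusted p under 0.05, against 7.45% of all loci. The authors' deposited table tested 20 of the 22 and marked 5 as higher and none as lower. Of all its tested loci, it marked 1.21% as higher. Lyz2, the macrophage lysozyme, averaged 8.79 FPKM in the cKO against 1.10 in the controls, and Fcer1g, an Fc receptor chain, 14.1 against 3.204. Both were among the 4 markers with the smallest unadjusted p. The 2 cKO libraries were not alike in every marker. Cx3cr1 was at 1.92, 2.51 and 1.90 FPKM in controls 1 to 3. It was above them in cKO 1 (4.58) and below them in cKO 2 (0.875). Cx3cr1 is named after its values were seen. Against 100 FPKM of summed microglial markers, B2m stood at 17.0, 11.6 and 9.97 in the controls and at 11.04 and 13.9 in the cKO, so that on this scale the cKO libraries lay within the range of the controls. Only control 1 lay above cKO 2 on it. Among the controls, B2m was highest in control 1 (11.1 FPKM), where the microglial sum was lowest (65.1 FPKM). This scale was not planned and carries no test. The part of microglia and macrophages in the B2m difference was not tested. In whole tissue a change in the number of cells of a type and a change of RNA per cell cannot be told apart. The 18 endothelial markers, from the other brain cells known for class I, summed to 132, 165 and 135 FPKM in the controls and to 137 in each cKO library, and the 16 that were tested had a median log2 change of -0.08. Pericyte markers (7 tested) had a median of 0.10, with 4 above every control in both cKO libraries, against the same 13.4%. Erythroid markers (7 tested) had a median of 0.04, and the 18 cortical markers one of -0.37.

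Tapbp, which encodes tapasin (XLOC_008784; chromosome 17, 33919478 to 33929290), was at 10.9996, 10.5 and 7.67 FPKM in controls 1 to 3 and at 8.11 and 7.82 in cKO 1 and 2. Both cKO libraries lay just above the lowest control, and the log2 change was -0.25 (SE 0.18, 95% interval -0.70 to 0.21, adjusted p = 0.638 in limma).

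Irf9, which encodes a DNA-binding subunit of that complex (XLOC_006249; chromosome 14, 55603985 to 55610030), was the only one of the 8 genes with both cKO libraries below every control. It was at 6.08, 6.996 and 5.82 FPKM in controls 1 to 3 and at 4.54 and 4.21 in cKO 1 and 2. The cKO mean of 4.37 ± 0.238 FPKM (SD, n = 2) was 69.5% of the control mean of 6.30 ± 0.619 (SD, n = 3). The log2 change was -0.44 (SE 0.15, 95% interval -0.80 to -0.08), with an unadjusted p of 0.0260 and an adjusted p of 0.575 in limma, so it did not pass. In the authors' deposited table its q-value was 0.405.

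Ifitm2 and Ifitm3 encode interferon-induced transmembrane proteins, which hinder the entry of enveloped viruses. Ifitm2 (XLOC_020418; chromosome 7, 140954837 to 140959686) was the most abundant of the 8 genes, at 17.6, 45.05 and 24.3 FPKM in controls 1 to 3 and at 30.7 and 30.4 in cKO 1 and 2. The cKO libraries lay close together between control 3 and control 2, and the log2 change was 0.18 (SE 0.38, 95% interval -0.78 to 1.14). Without control 1 the change was -0.12, so its sign rests on that library. Ifitm3 (XLOC_020419; chromosome 7, 141009590 to 141010744) was at 3.17, 4.30 and 2.001 FPKM in the controls and at 4.30 and 4.16 in the cKO. Its highest control, control 2, was level with cKO 1, and the log2 change was 0.37 (SE 0.27, 95% interval -0.30 to 1.04). Neither passed in limma (adjusted p = 0.868 for Ifitm2 and 0.634 for Ifitm3). The 2 genes are close relatives, so their separate levels are uncertain; their sum was 20.7, 49.4 and 26.3 FPKM in the controls and 35.0 and 34.5 in the cKO.

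Bst2 encodes tetherin, which holds budding virus particles at the cell surface. It was the least abundant of the 8 (XLOC_021358; chromosome 8, 71534255 to 71537472), at 0.635, 1.69 and 1.14 FPKM in controls 1 to 3 and at 2.003 and 1.70 in cKO 1 and 2. Both cKO libraries were above every control, but cKO 2 (1.703) and control 2 (1.687) nearly touched. The log2 change was 0.43 (SE 0.27, 95% interval -0.25 to 1.12, adjusted p = 0.602 in limma), and on the log2(FPKM + 1) scale the change of so low a gene is understated: with a pseudocount of 0.1 it was 0.73. Under quantile normalization the groups overlapped. For Ifitm2, Ifitm3 and Bst2 the highest control was control 2, the library with the high meningeal markers. Control 2 was also the highest of the 5 libraries for summed cortical markers (4214 FPKM), summed endothelial markers (165 FPKM) and summed FPKM (484296). The part of these differences was not tested. Without control 2 the log2 changes of the 3 genes were 0.54, 0.56 and 0.61, and in all 3 both cKO libraries lay above both controls. Control 2 was the highest control of each, so leaving it out raises these changes by construction. Over all alternatives the lowest log2 changes of Ifitm2, Ifitm3 and Bst2 were -0.12, 0.15 and 0.25.

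**Figure D2:**
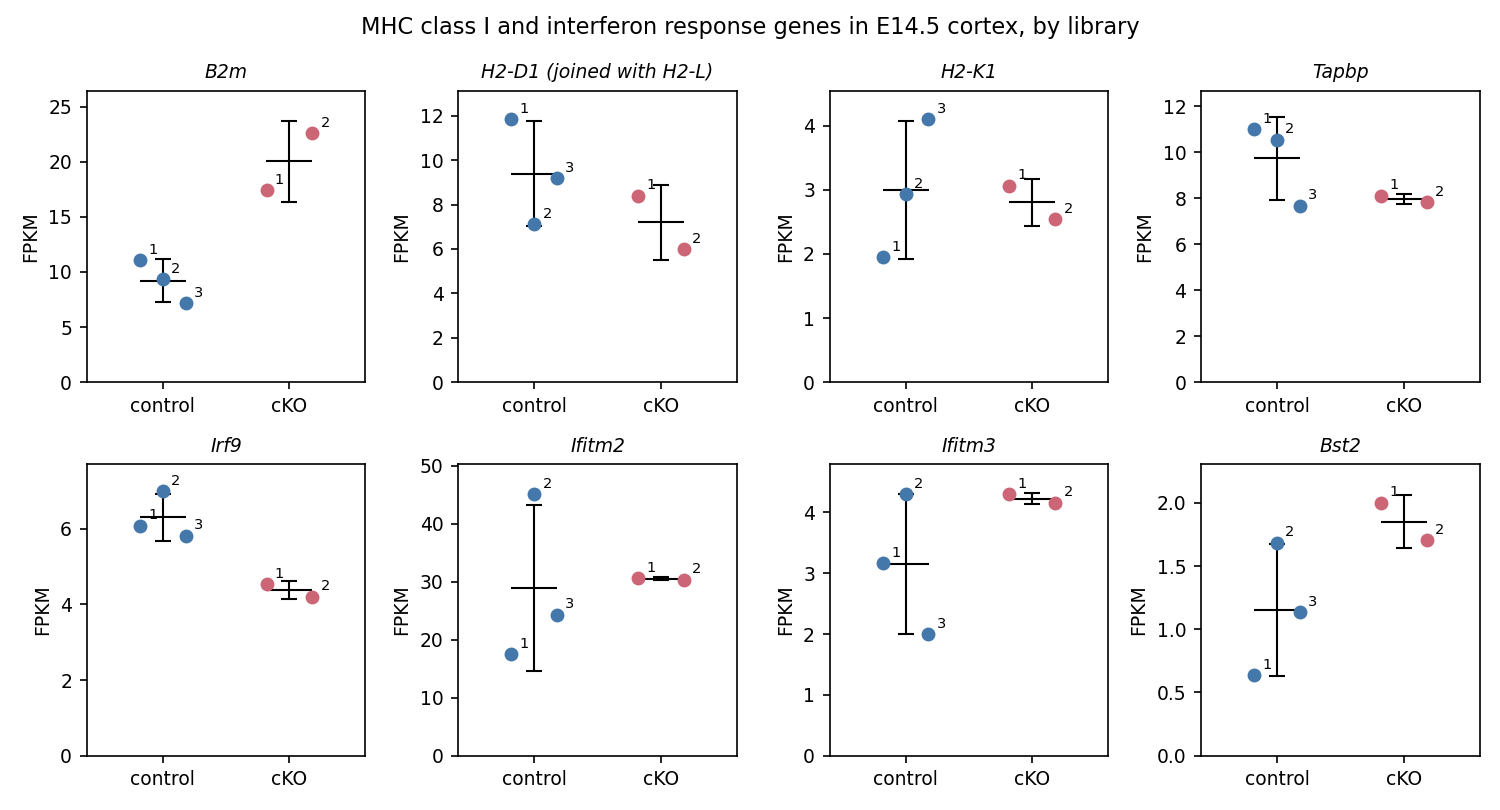
FPKM of each of the 8 genes in every library (vertical axis, from 0 in each panel), for control and cKO cortex. Points are libraries with their replicate number, and bars give the mean and SD. B2m is above and Irf9 below every control in both cKO libraries, and Bst2 of control 2 lies level with cKO 2.

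In the controls, Ifitm2 had the highest mean level (28.98 FPKM). Tapbp (9.74), H2-D1/H2-L (9.39) and B2m (9.20) followed with ranges that overlapped each other. Irf9 (6.30), Ifitm3 (3.16), H2-K1 (2.995) and Bst2 (1.15) were lower, and Ifitm3 and H2-K1 did not differ beyond their spread. In the cKO, B2m stood between Ifitm2 and Tapbp without overlap, while Irf9 and Ifitm3 overlapped, and the order of the other 7 genes was Ifitm2, Tapbp, H2-D1/H2-L, Irf9, Ifitm3, H2-K1 and Bst2, as in the controls. FPKM is per transcript length, but the places of Ifitm2, Ifitm3 and the heavy chains in this order are uncertain where reads are split among relatives.

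As a set the 8 genes did not move one way. Limma called none of them at an adjusted p of 0.05, where it called 6 of all 12672 loci, or 0.0473% (0.0158% higher and 0.0316% lower). Chd8 was not called either (adjusted p = 0.575 in limma), so a gene that is not called may still have changed. Of the 8 genes, 2 had an unadjusted p under 0.05, B2m and Irf9, with opposite signs. Of all loci 7.45% passed (3.08% higher and 4.37% lower). Both cKO libraries were above every control in 2 genes (B2m and Bst2) and below in 1 (Irf9), against 13.4% and 15.6% of all loci (29.0% in either direction). Without control 2 these counts were 4 and 2, against 18.1% and 19.7%. The signs were split, 4 positive and 4 negative, and the median log2 change was 0.07, against -0.02 for all tested loci. The median was -0.14 without control 1, 0.25 without control 2, and -0.25 over the 5 genes with a mean of at least 5 FPKM. With 10 ways to split 5 libraries into 3 and 2, a two-sided exact permutation p for 1 gene cannot be under 0.1, the value of B2m and Irf9.

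**Figure D3:**
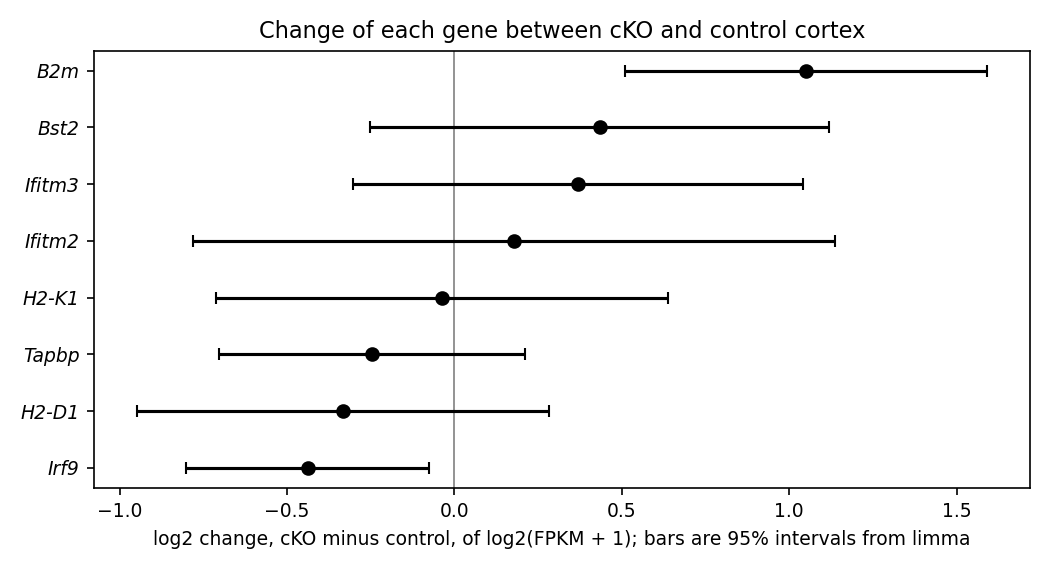
Log2 change (cKO minus control, of log2(FPKM + 1), horizontal axis) of each of the 8 genes, with limma's 95% interval. The intervals of B2m and Irf9 lie on opposite sides of 0, and the other 6 cross it.

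The 13 lists of other genes of the pathway held 215 loci, of which 68 were tested. Limma called none of the 68, and 2 had an unadjusted p under 0.05 (H2-T23 and Creb1), where 7.45% of all loci did. In 12 both cKO libraries lay above every control and in 9 below, against 13.4% and 15.6% of all loci, and the median log2 change was -0.06. The authors' deposited table tested 87 of the 215 loci and marked 1, Rnaseh2c, as lower, where 3.0% of all its tested loci were marked lower.

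Of 26 loci of other class I heavy chains, 9 were listed at 0 in every library and 6 were tested. The log2 change was negative in 4 of these 6 and positive in 2 (median -0.16). H2-T23, which encodes Qa-1, a ligand of inhibitory receptors of natural killer cells, was at 1.99, 1.92 and 2.05 FPKM in controls 1 to 3 and at 1.079 and 1.24 in cKO 1 and 2. Its cKO libraries lay below every control (log2 change -0.47, unadjusted p = 0.0440, adjusted p = 0.575 in limma). The joined locus of H2-T22 and H2-T9 was at 1.54, 2.33 and 1.62 in the controls and at 0.933 and 1.29 in the cKO. H2-M5 had a mean of 2.50 FPKM in the cKO against 3.21 in the controls, with overlap. Fcgrt, the heavy chain of the neonatal Fc receptor that also pairs with B2m, was at 1.82 against 1.41, with overlap.

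Of the loading machinery, the general chaperones of the endoplasmic reticulum were abundant and the dedicated parts were low. Calr, which encodes calreticulin, was at 203 FPKM in the cKO against 227 in the controls, Canx (calnexin) at 85.6 against 67.99, and Pdia3 (the disulfide isomerase ERp57) at 92.9 against 80.7. Both cKO libraries were below every control for Calr and above for Canx. Tap1, a subunit of the peptide transporter, stayed between 0.504 and 0.688 FPKM in all 5 libraries, and Tap2 between 0.159 and 0.290. The interferon-inducible proteasome subunits Psmb8 and Psmb9 did not exceed 0.679 and 0.215 FPKM. These 4 were below the level for testing, and they are named after their values were seen. Psmb10, the third inducible subunit, was at 8.85 against 7.63 FPKM, with both cKO libraries above every control. Psme1 and Psme2, of the proteasome activator, were at 60.9 against 76.4 and 6.49 against 6.54. Psme1 was lowest in cKO 2 (44.4 FPKM), without which its log2 change was 0.021.

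Among factors that bind class I promoters, Creb1 was at 18.6 FPKM in the cKO against 13.8 in the controls (log2 change 0.40, unadjusted p = 0.0358, adjusted p = 0.575 in limma) and Atf1 at 6.50 against 5.13. Rfx5, a subunit of the RFX complex, was at 4.35 against 5.67, and Nfkb1, a subunit of NF-kappa B, at 5.11 against 6.55. In each of these 4 genes, named for having the smallest unadjusted p of their list, the groups did not overlap. Of the 10 tested loci of the list, 4 had both cKO libraries above every control and 2 below, against 13.4% and 15.6% of all loci. Nlrc5, the known class I transactivator, did not exceed 0.0625 FPKM in any library. It is named after its value was seen.

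Interferon genes themselves were at the floor of the table. Of 21 loci, 20 were listed at 0 in every library, and Ifnk was at 0.101 FPKM in control 1 alone. The receptors and their kinases were expressed: 10 of 11 loci were tested, with a median log2 change of 0.03. Jak2, a kinase of the type II receptor, was at 22.9 FPKM in the cKO against 17.5 in the controls, with both cKO libraries above every control (unadjusted p = 0.0535, adjusted p = 0.575 in limma). Il10rb, a chain of the type III receptor, was at 1.80 against 1.36, also without overlap. Ifngr1, of the type II receptor, was at 4.73 against 3.95. Stat2, the partner of IRF9, was at 6.79 against 7.73, with overlap.

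The list of other interferon regulatory factors also held the corepressor genes Irf2bp1 and Irf2bp2 and their relative Irf2bpl. Its 5 tested loci of 11 were Irf2, Irf3, Irf2bp1, Irf2bp2 and Irf2bpl, so its medians are not those of the factors alone. The median log2 change was -0.26, which was -0.10 at a mean of at least 5 FPKM and 0.03 over all 11 without the filter. Irf8, a factor of the myeloid lineage below the level for testing, was at 0.709, 0.772 and 0.758 FPKM in the controls and at 1.32 and 1.10 in the cKO, above every control. It is named after its values were seen. Irf2, which mostly represses, was at 3.21 FPKM in the cKO against 4.02 in the controls, with both cKO libraries below every control. Irf3, activated by sensors of viral nucleic acid, was at 13.4 against 16.7, and the corepressor genes Irf2bp1 and Irf2bp2 were at 40.5 against 57.4 and 15.03 against 13.5, all with overlap. Of 10 inhibitors of the pathway, 8 were tested (median -0.05). Pias1 and Pias2, which encode SUMO ligases that bind STAT factors, were at 14.01 against 12.0006 FPKM and 37.6 against 31.1, both without overlap, while Pias4 (29.5 against 34.5) and Socs3 (5.28 against 6.44) overlapped.

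The inducible antiviral genes were mostly at low levels. Of 69 loci, 50 were under 1 FPKM in every library and 12 were tested, with a median log2 change of -0.10 and none at an unadjusted p under 0.05. Over all 69 without the filter the median was 0.03. Of the 57 untested loci, 14 had both cKO libraries above every control and none below, against 5.93% and 3.8% of all 11466 untested loci. Those 11466 include 5658 loci at 0 in every library, which cannot count either way and lower both shares. Of the 69 antiviral loci only 4 were at 0 throughout. Among the 14 above every control, Herc6 was at 0.281, 0.289 and 0.305 FPKM in the controls and at 0.490 and 0.570 in the cKO. Trim25 was at 0.842, 0.667 and 0.855 against 1.10 and 0.895. Both are named after their values were seen. Mx1, Oas1g, Ifi44l and Cxcl9 were listed at 0 in every library. Isg15, the ubiquitin-like modifier that type I interferon induces strongly, was at 0.372, 1.93 and 0.943 FPKM in controls 1 to 3 and at 1.07 and 0.434 in cKO 1 and 2. It is named after its values were seen. Among the tested genes, Shisa5 was at 17.6 against 13.8 and lay above every control in both cKO libraries. Adar, which encodes an RNA-editing enzyme, was at 22.6 against 26.1, and the helicase gene Znfx1 at 7.33 against 8.12, both below every control. Ifi30, a lysosomal thiol reductase, was at 8.93 against 12.7, with overlap. None of the other 5 Ifitm genes reached the level for testing, and the highest value among them was 1.39 FPKM.

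Of sensors of nucleic acids and their adaptors, 10 of 17 loci were tested, with a median log2 change of -0.06. Of the 7 untested loci, none above 0.639 FPKM, 4 had both cKO libraries above every control and 1 below. The shares were 5.93% and 3.8% of all 11466 untested loci, of which 5658 were at 0 in every library. Unc93b1, which carries Toll-like receptors to endosomes, was at 3.93 and 2.53 FPKM in cKO 1 and 2, above every control (1.89, 1.92 and 2.27). Rnaseh2c, a subunit of the RNase that removes ribonucleotides from DNA, was at 59.97, 141 and 76.9 FPKM in controls 1 to 3 and at 66.3 and 38.4 in cKO 1 and 2. Its groups overlapped (log2 change -0.77, adjusted p = 0.575 in limma), while the authors' deposited table gave it a q-value of 0.0333. Mavs was at 3.22 against 4.15 and Tbk1 at 14.2 against 13.0, with overlap. Class II presentation genes, a sign of professional antigen-presenting cells, held 1 tested locus of 11: H2-DMa was at 2.06 against 1.86, and no other member exceeded 0.397 FPKM. Of its 10 untested loci, 4 had both cKO libraries above every control and 1 below, against the same shares. Class I receptors had no tested locus of 11, with 7 listed at 0 in every library.

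**Figure D4:**
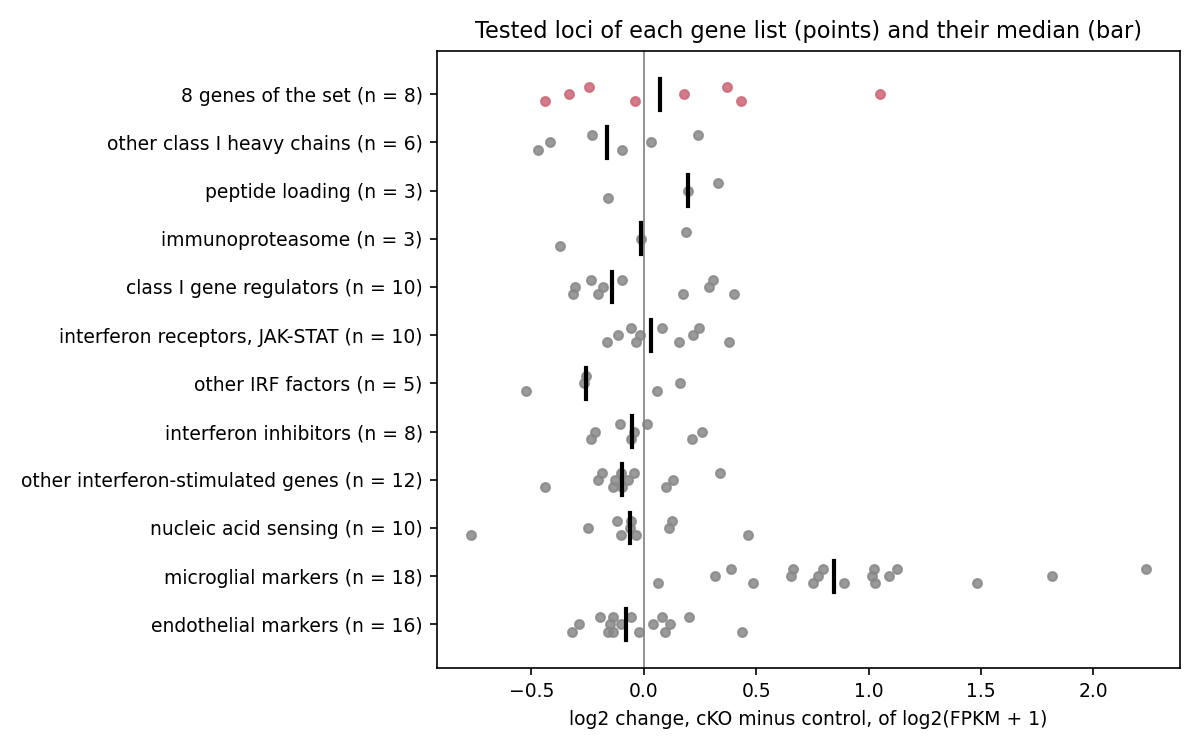
Log2 change (cKO minus control, of log2(FPKM + 1), horizontal axis) of each tested locus in the 8 genes, in 9 pathway lists with at least 3 tested loci, and in microglial and endothelial markers. Points are loci and bars are medians: pathway medians lie between -0.26 and 0.20, the microglial median is at 0.84, and B2m is the member farthest to the right of its row.

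The loci whose profile over the 5 libraries came closest to the mean profile of the 8 genes were Pear1, 4930519F09Rik, Dffa, Ebpl and Mkrn2. Likeness was the root mean square difference of log2(FPKM + 1) about each gene's own mean, and it ran from 0.0187 for Pear1 to 0.0281 for Mkrn2. With 5 libraries and 12672 loci such matches are a description only.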

How the data were processed

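RNA-seq values of 3 control and 2 cKO libraries were used, grouped by their labels; ATAC-seq data (6 samples) were left out. Per the submitters' processing notes reads were handled with CASAVA, Bowtie2, TopHat, Cufflinks and MACS on build mm10; no source used here gives versions, annotation or strand setting. The authors deposited FPKM per locus and library, their mean FPKM per group, and their own comparison (log2 fold change, p-value, q-value and a score, the test statistic), per the file headers. FPKM depends on transcript length and on all other transcripts of a library, and its depth is unknown.

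On log2(FPKM + 1), loci averaging 1 FPKM or more were fitted by limma 3.58.1 under R 4.3.3 (mean-variance trend on, 3 residual and 2.49 prior degrees of freedom) with Benjamini-Hochberg adjustment over 12672 loci. The fit was tested on simulated data. Members and lists were chosen with earlier results of these data known. Named genes were the 8 members, up to 4 genes per list with the smallest unadjusted p, and 5 loci of like profile; of the 7 marker lists, mostly summed levels and counts are given. Alternatives changed the pseudocount, filter, scaling, variance trend, replicate block and each library. Of 334 listed symbols, 6 found no row. Coordinates are those of RefSeq on GRCm38.p6.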

Additional observations from a re-analysis of the deposited data

How the results depend on the processing

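Each result was recomputed under 12 alternatives. No cKO library carries number 3, so the replicate block gives the same log2 changes as leaving out control replicate 3. For these changes the 2 are not separate alternatives. No member was called under any of the 12. B2m kept its direction in all 12 (log2 change 0.87 to 1.23, unadjusted p 0.00261 to 0.0387, adjusted p 0.324 to 1.0), as did H2-D1, Tapbp and Irf9 in 12 and Ifitm3 and Bst2 in 11 of 11 (-0.51 to -0.37 for Irf9). Leaving out 1 library at a time gave 8 to 35 loci called over the whole table (6 with all libraries), 2 to 30 higher and 2 to 10 lower, 2 to 4 members above and 1 to 2 below every control, and member medians from -0.14 to 0.25. With a mean of at least 5 FPKM, 1 locus was called higher, 1 member lay above every control and the median was -0.25, since only 5 members remained. Without a filter 24 loci were called, 20 of them higher. Without the intensity trend 2 were called lower, and under quantile normalization 1 member lay above every control. With the replicate block, 3 loci were called, 1 higher and 2 lower, and B2m was at 0.90 (adjusted p = 0.970); same-numbered libraries did not deviate together (correlations of -0.067 and -0.11), so the numbers were not taken as pairs.

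Signs changed for 6 of 47 named genes. H2-K1 was at 0.16 with the replicate block, and from -0.24 to 0.16 as single libraries were left out (above 0 without cKO replicate 2 or control replicate 3). Psme2 was at 0.0071 under median-of-ratios scaling, 0.018 under quantile normalization and 0.017 with the replicate block, and from -0.12 to 0.097 as single libraries were left out (above 0 without control replicate 3 or cKO replicate 2). Without cKO replicate 2, Psme1 was at 0.021 and Socs3 at 0.011, and their lowest values were -0.77 and -0.48 without cKO replicate 1. H2-DMa ranged from -0.047 without cKO replicate 1 to 0.36 without control replicate 1, and was also below 0 without control replicate 2 (-0.032). Ifitm2 ranged from -0.12 without control replicate 1 to 0.54 without control replicate 2. The cause of these shifts was not tested. FPKM without counts limits what can be said of low genes such as Bst2.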
